A study of Mus musculus with 4 samples.

Results

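The interleukin receptor chains described here are Il2ra (CD25), Il2rb, Il2rg, Il4ra, Il6ra, Il6st, Il21r, Il18r1, Il12rb1 and Il12rb2, without Il7r. Every probe that the array's probe-to-gene table assigns to one of these 10 symbols was taken. The table held 11 such probes, for 8 of the 10 genes, out of 23978 named probes for 16590 genes. Il21r had 3 probes, Il12rb1 had 2 and the other members had 1 each, while Il2rg and Il4ra had none there and are not analysed here.

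RNA was measured on Illumina bead arrays, 1 array for each of 4 groups of mouse CD4 T cells. All cells came from male Foxp3-GFP mice (B6.Cg-Foxp3tm2Tch/J), in which green fluorescent protein marks cells that express Foxp3, the transcription factor of regulatory T cells (Treg). For induced Treg (iTreg), GFP-negative CD44-low naive CD4 cells received antibodies to CD3 and CD28 (1 µg/ml of each), IL-2 (15 ng/ml) and TGF-beta (10 ng/ml) for 5 to 6 days, without vitamin C (conventional iTreg) or with it at 10 µg/ml (vitamin C iTreg), and GFP-positive CD25-positive cells were sorted at the end. Natural Treg (CD4-positive, CD8-negative, GFP-positive) and naive CD4 cells (CD4-positive, CD8-negative, GFP-negative, CD44-low) came from lymph node and spleen by sorting alone, with no culture. The labels give neither the age of the mice nor the number pooled for an array.

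With 1 array per group no difference has a replicate check and no test was possible, so each value describes a pair of arrays. The iTreg gate selected on CD25, the protein that Il2ra encodes, while the natural Treg gate did not. Differences of the iTreg arrays from the ex vivo arrays cannot be told apart from stimulation and culture. In bulk RNA, fewer expressing cells and less RNA per cell cannot be told apart.

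An interleukin receptor is an assembly of chains, and which chains a T cell makes sets which cytokines it can read. CD25 has no signalling part of its own and raises the affinity of the IL-2 receptor, whose beta chain (Il2rb, also used by IL-15) and common gamma chain (Il2rg, shared with the receptors for IL-4, IL-7, IL-9, IL-15 and IL-21) pass the signal through JAK kinases to STAT5. Treg depend on IL-2 from other cells, and high CD25 is one of their defining surface features. Il12rb1 and Il12rb2 form the receptor for IL-12, which signals through STAT4 in T helper 1 cells, and Il12rb1 also serves the IL-23 receptor. Il6ra binds IL-6 and Il6st (gp130) signals for it, Il18r1 binds IL-18, and Il21r binds IL-21.

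Signals are given as the deposited linear intensity and as a background-corrected, quantile-normalized log2 value. A probe counted as detected where its deposited detection p-value was under 0.01. Where only 1 array of a pair detected a gene, the array without detection was given its own value or its floor, whichever was higher, the floor being the weakest signal detected there, and the result is written as "at least". These bounds hold on the background-corrected scale alone: subtracting background widens ratios to a dim array, so the deposited intensities can give a smaller ratio. That floor was 6.16 log2 in iTreg without vitamin C and 6.19 with it, 6.31 in natural Treg and 6.65 in naive CD4. A difference was counted when it reached 2-fold, a log2 difference of 1. The detected genes numbered 7027 to 7603 per array. All 6 CD4 T cell markers were detected on all 4 arrays. Of 6 Treg markers, 5 were detected on each iTreg array, 6 on natural Treg and 4 on naive CD4. Foxp3 was detected on the 3 Treg arrays (8.05 to 8.27 log2) and not on the naive array (4.80). Of 7 B cell markers with a probe, 0 were detected on the iTreg arrays and only Cd79b on each ex vivo array.

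Promoters are shown for the members whose probes were higher on both iTreg arrays than on both ex vivo arrays and that have an entry in the RefSeq promoter table, each from 250 bases before to 50 bases after an annotated start. Capitals mark matches to TTCNNNGAA, the palindromic STAT site, on either strand. TGANTCA, the AP-1 site, was searched too and had no match in the windows of the members. The STAT palindrome occurs in 8.30% of 32851 such windows of all genes and the AP-1 site in 7.81%. Il2ra lies on the plus strand of chromosome 2, in the window chr2:11642542-11642841 of GRCm38.p6. The window of Il12rb2 is chr6:67376139-67376438 on the minus strand, and that of the furthest downstream annotated start of Il18r1 is chr1:40465756-40466055 on the plus strand.
Il2ra: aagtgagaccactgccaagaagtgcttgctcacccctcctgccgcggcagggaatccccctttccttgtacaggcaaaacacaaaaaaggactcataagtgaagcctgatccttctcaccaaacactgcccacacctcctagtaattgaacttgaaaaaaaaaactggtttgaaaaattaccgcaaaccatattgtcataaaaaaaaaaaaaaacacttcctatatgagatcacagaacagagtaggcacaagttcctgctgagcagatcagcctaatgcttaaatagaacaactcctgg
Il12rb2: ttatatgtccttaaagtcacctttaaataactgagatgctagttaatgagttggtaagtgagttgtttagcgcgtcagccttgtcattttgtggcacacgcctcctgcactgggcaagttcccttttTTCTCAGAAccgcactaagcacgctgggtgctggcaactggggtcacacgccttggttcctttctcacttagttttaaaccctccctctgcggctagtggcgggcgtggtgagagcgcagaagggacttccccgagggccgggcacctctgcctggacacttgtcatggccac
Il18r1: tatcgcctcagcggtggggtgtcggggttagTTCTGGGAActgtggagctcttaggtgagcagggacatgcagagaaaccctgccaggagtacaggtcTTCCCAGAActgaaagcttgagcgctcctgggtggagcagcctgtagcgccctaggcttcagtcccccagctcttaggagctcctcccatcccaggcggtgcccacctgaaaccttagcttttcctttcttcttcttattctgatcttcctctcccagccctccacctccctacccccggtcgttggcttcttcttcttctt

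Il12rb2 had 1 STAT palindrome, which begins at base -123 from the start. Il18r1 had 2 in the window of that start, beginning at -219 and -152, and 0 in the windows of its other starts. The windows of Il2ra, Il2rg, Il4ra, Il6ra, Il6st and Il21r held 0. A match is a run of letters and not evidence of binding. Il2rb and Il12rb1 had no entry.

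Il2ra had its highest signal on both iTreg arrays and was not detected in naive CD4. The intensity was 10874 in iTreg without vitamin C and 12310 with it, 3216 in natural Treg and 121 in naive CD4. In normalized log2 values these were 13.32, 13.38, 11.77 and 5.23, in the same order. The iTreg arrays were thus close together and above natural Treg, which was far above the naive array. After background correction Il2ra was at least 102-fold higher in conventional iTreg than in naive CD4, at least 106-fold higher in vitamin C iTreg and at least 34.8-fold higher in natural Treg. The deposited intensities gave smaller ratios of 89.7, 101.6 and 26.5. Without background correction the bounds were 5.70, 5.77 and 4.18 log2, in place of 6.67, 6.73 and 5.12. These 3 comparisons share the naive array. Against natural Treg the difference was 1.55 log2 (2.93-fold) for conventional iTreg and 1.62 log2 (3.06-fold) for vitamin C iTreg, which share the natural Treg array. Vitamin C iTreg differed from conventional iTreg by 0.06 log2, and 37.0% of the compared genes had a difference as high or higher. Both iTreg arrays hold cells sorted as CD25-positive, so this difference describes the sorted cells and not the whole cultures. Natural Treg were not sorted on CD25, and the part of that gate in the differences from natural Treg cannot be told apart.

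Il2rb, the signalling chain of the IL-2 and IL-15 receptors, was ordered differently from Il2ra. Its intensity was 826 in iTreg without vitamin C and 1020.2 with it, 1032 in natural Treg and 169 in naive CD4, or 9.36, 9.64, 10.07 and 6.55 log2. Natural Treg was highest, the iTreg arrays followed, and the naive array was just outside the detection limit with a detection p-value of 0.0125. After background correction natural Treg was at least 10.7-fold above naive CD4, vitamin C iTreg at least 7.97-fold and conventional iTreg at least 6.56-fold. The deposited intensities gave smaller ratios of 6.10, 6.03 and 4.88. Without background correction the bounds were 2.56, 2.18 and 1.93 log2, in place of 3.42, 2.99 and 2.71. Conventional iTreg lay below natural Treg by a log2 difference of -0.71 and vitamin C iTreg by -0.42. The difference of vitamin C iTreg from conventional iTreg was 0.28 log2, under 2-fold.

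**Figure D1:**
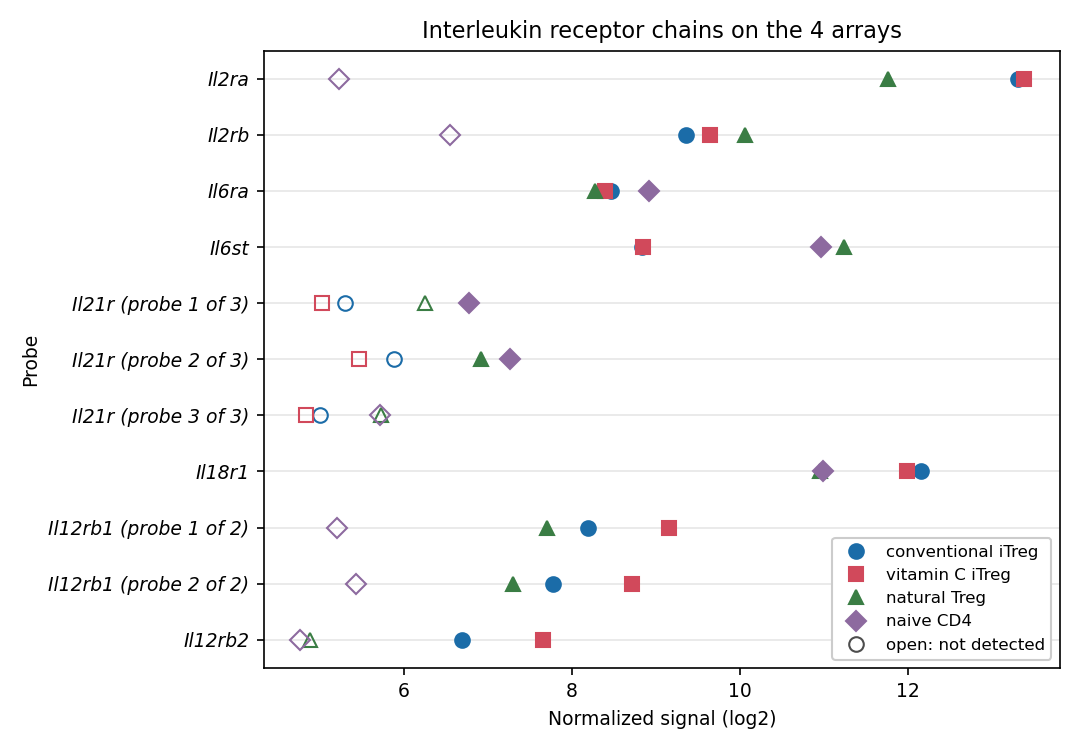
Normalized log2 signal of each of the 11 probes (rows) on the 4 arrays, 1 symbol per array, with open symbols where the detection p-value was not under 0.01. Signals compare only within a row. Il2ra separates the naive array (5.23) from the others, Il6st separates the iTreg pair (8.83 and 8.85) from the ex vivo pair, and both Il12rb1 probes are highest on the vitamin C array.

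Both chains of the IL-12 receptor had their highest signal in vitamin C iTreg. The first Il12rb1 probe (ILMN_1227900) had an intensity of 431 in iTreg without vitamin C and 762 with it, 277 in natural Treg and 120.3 in naive CD4. The second (ILMN_2799452) had 349, 596, 233 and 128 in the same order. On both probes vitamin C iTreg was highest, conventional iTreg and natural Treg followed, and naive CD4 was not detected. Il12rb2 (ILMN_1219641) had an intensity of 215 for conventional iTreg and 344 for vitamin C iTreg. It was 106 for natural Treg and 99.0 for naive CD4, not detected on either. Il12rb2 was thus detected on the cultured arrays alone, and on the conventional array it lay near the floor, at 6.70 against 6.16 log2.

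Vitamin C iTreg exceeded conventional iTreg by 0.96 log2 for Il12rb1 on its first probe, by 0.93 on the other probe, and by 0.96 for Il12rb2. These are 1.94-fold, 1.91-fold and 1.94-fold, so neither gene reached the 2-fold limit. They ranked 85 and 87 from the highest among 7756 compared genes, with 1.10% and 1.12% of genes as high or higher. The probes of Il12rb1 differed from each other by 0.03 in this comparison. Over the 1948 genes with at least 2 probes detected on both arrays, the median gap between probes of a gene was 0.15 log2 and the 95th percentile 0.46. Probes of a gene share the RNA and the array, so this gap holds no spread between cultures. In the intensities as deposited, vitamin C over conventional iTreg was 1.77-fold and 1.71-fold for the Il12rb1 probes and 1.60-fold for Il12rb2. With the authors' log2 values the differences were 0.77 for Il12rb1 and 0.57 for Il12rb2.

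**Figure D2:**
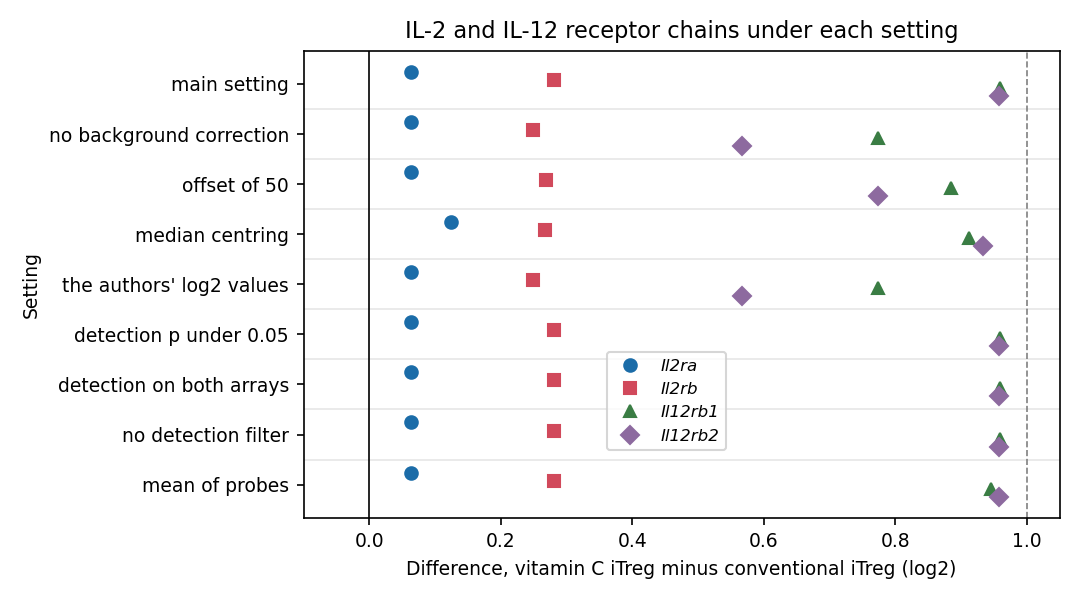
Difference of vitamin C iTreg from conventional iTreg (x axis, log2) for 4 receptor genes under the main setting and 8 alternatives (rows), with the dashed line at 2-fold. Il12rb1 runs from 0.77 to 0.96 and Il12rb2 from 0.57 to 0.96, above Il2rb (0.25 to 0.28) and Il2ra (0.06 to 0.12) in each row. Rows that change only the detection rule repeat the main setting, since both arrays detected all 4 genes. The authors' values repeat the row without background correction, and the mean over a gene's probes can move Il12rb1 alone.

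Natural Treg exceeded naive CD4 at least 2.09-fold for Il12rb1 on its first probe and at least 1.57-fold on the other, the side of the limit thus depending on the probe. It depended on the scale too, the first bound being 0.63 log2 without background correction and 0.86 with an offset of 50. Vitamin C iTreg was 2.73-fold above natural Treg for Il12rb1 and conventional iTreg 1.40-fold. Il12rb2 was at least 2.53-fold above natural Treg in vitamin C iTreg and at least 1.30-fold in conventional iTreg. The vitamin C bound was 0.75 log2 without background correction, under 2-fold. Over naive CD4, Il12rb1 was at least 5.69-fold higher in vitamin C iTreg and at least 2.93-fold in conventional iTreg. Without background correction these bounds were 1.75 and 0.98 log2, the second under 2-fold. For Il12rb2 the bounds over naive CD4 were 2.01-fold and 1.03-fold, small because the floor of the naive array was itself 6.65 log2, and the first was 0.59 log2 without background correction.

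Other genes of the IL-12 pathway did not all run the same way. Stat4, which carries the IL-12 signal, was at 9.09 log2 in conventional iTreg, 8.05 in vitamin C iTreg, 12.29 in natural Treg and 12.23 in naive CD4, so the array with the highest IL-12 receptor signals had the lowest Stat4. Its vitamin C difference was -1.03 log2, and -1.05 on a second probe that the vitamin C array did not detect, while the remaining probe was detected on no array. Without background correction the first was -0.82, and with an offset of 50 it was -0.95, both under 2-fold. Il12a, which encodes a chain of IL-12 itself, was detected on the vitamin C array alone, at 6.74 log2 against 5.35 on the conventional array, at least 1.49-fold higher (a log2 difference of 1.39 with the undetected value as it stands). Tyk2 and Jak2, kinases bound to the IL-12 receptor, differed by -0.10 and 0.03.

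Markers of CD8 T and NK cells, which also carry IL-12 and IL-18 receptors, differed between these arrays and not all in 1 direction. Of 8 such markers, 4 were detected on each iTreg array and 3 on each ex vivo array. Their summed normalized linear level was 11687 in iTreg without vitamin C and 6272 with it, 11535 in natural Treg and 17862 in naive CD4, the lowest value being that of the vitamin C array. Cd8a, Ncr1, Klrb1c and Eomes were detected on none of the 4 arrays, while Cd8b1 and Prf1 were detected on all of them. Nkg7 (12.93 and 11.23 log2) and Klrd1 (8.68 and 7.69) were lower in vitamin C than in conventional iTreg, while Cd8b1 was higher (10.34 and 10.90). Of 6 myeloid markers with a probe 1 was detected on each array except naive CD4, which had 2. Their summed level was 5124 in conventional and 6112 in vitamin C iTreg, 3215 in natural Treg and 2508 in naive CD4. That is the same order as Il12rb1. Cst3, the one detected on all arrays (12.28, 12.54, 11.56 and 11.08 log2), made up most of that sum on each array. The order of the sum is thus the order of 1 gene and not of the list. Fcgr3 ran the other way, being detected in naive CD4 alone (7.62 log2). Cd14, Lyz2, Itgam and Itgax were detected on no array. The part of such cells in the receptor signals was not tested.

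Il18r1, the ligand-binding chain of the IL-18 receptor, was higher on both iTreg arrays than on both ex vivo arrays. Its intensity was 4910.4 in iTreg without vitamin C and 4739.6 with it, 1861 in natural Treg and 1952 in naive CD4, or 12.16, 12.00, 10.96 and 10.99 log2. The arrays fell into a cultured pair and an ex vivo pair, with differences inside a pair of -0.16 for vitamin C over conventional iTreg and -0.04 for natural Treg over naive CD4. Conventional iTreg was 2.30-fold above natural Treg and 2.24-fold above naive CD4. Vitamin C iTreg was above them by 1.04 and 1.00 log2, at the limit, and the lowest value of the second over the settings tried was 0.97. Il18rap, the second chain of that receptor, was detected on the iTreg arrays (7.28 and 6.80 log2) and not on natural Treg (5.47) or naive CD4 (4.82). Its bounds were all under 2-fold. Conventional iTreg was at least 0.96 log2 above natural Treg and 0.63 above naive CD4, and vitamin C iTreg at least 0.48 and 0.15.

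Of 6 IL-18 pathway genes with a probe, all compared between vitamin C and conventional iTreg, 0 reached 2-fold, against 1.75% of all genes. The median was 0.07, against -0.01 over all genes. Il18rap was lower by a log2 difference of -0.48, and the adaptor Myd88 and the kinase Irak1 were higher by 0.34 and 0.32. Between conventional iTreg and natural Treg 1 of 6 was at least 2-fold higher, Traf6, the ubiquitin ligase downstream of the receptor (1.49), and 0 were lower. Of all genes 11.1% were higher and 12.0% lower by that limit. Myd88 was at -0.75 there.

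Il6st (gp130), the signalling chain of the IL-6 receptor, was the member that was lowest on the iTreg arrays relative to the ex vivo arrays. Its intensity was 611 in iTreg without vitamin C and 641 with it, 2252 in natural Treg and 1921 in naive CD4. In log2 values these were 8.83, 8.85, 11.25 and 10.97, again a cultured pair and an ex vivo pair. Conventional iTreg differed from natural Treg by -2.41 log2 (5.33-fold lower) and from naive CD4 by -2.14 (4.40-fold lower). For vitamin C iTreg these were -2.40 and -2.12, and between the iTreg arrays the difference was 0.01. Natural Treg exceeded naive CD4 by 0.28.

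Il6ra, which binds IL-6, was detected on all 4 arrays and reached 2-fold in none of the 6 comparisons. Its intensity was 499 in iTreg without vitamin C and 500.3 with it, 366 in natural Treg and 505 in naive CD4. In log2 values these were 8.47, 8.39, 8.28 and 8.92. The largest difference was between natural Treg and naive CD4, -0.64. The chain that binds IL-6 and the chain that signals for it were thus unlike across the arrays, the first within 0.64 log2 and the second spanning 2.41.

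Il21r was near or under the detection limit on all its probes and not detected on the iTreg arrays. Its representative probe, the one with the highest mean, (ILMN_2603242) had an intensity of 160.5 in iTreg without vitamin C and 153 with it, 203 in natural Treg and 216 in naive CD4. The probe ILMN_1259867 had 132, 130.5, 163 and 181 in that order and was detected on the naive array alone. The probe ILMN_3120000 was detected on no array. On the representative probe the ex vivo arrays lay above the iTreg arrays, naive CD4 being at least 2.14-fold above conventional iTreg and at least 2.10-fold above vitamin C iTreg after background correction. Both passed 2-fold on that scale alone: without the correction the bounds were -0.57 and -0.55 log2, with an offset of 50 they were -0.83 and -0.81, and the deposited intensities differed 1.34-fold and 1.41-fold. On the probe detected in naive CD4 alone these bounds were -0.61 and -0.58 log2, under the limit. Natural Treg was at least 1.69-fold above conventional iTreg and differed from naive CD4 by -0.34 log2. Il21r is also made by B cells. Of 7 B cell markers with a probe, only Cd79b, a B cell receptor chain, was detected on any array. Cd79b was 9.97 log2 in natural Treg and 7.60 in naive CD4 and not detected in iTreg. Between the ex vivo arrays it was thus higher in natural Treg, while Il21r was higher in naive CD4. The part of B cells in the Il21r signal was not tested.

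**Figure D3:**
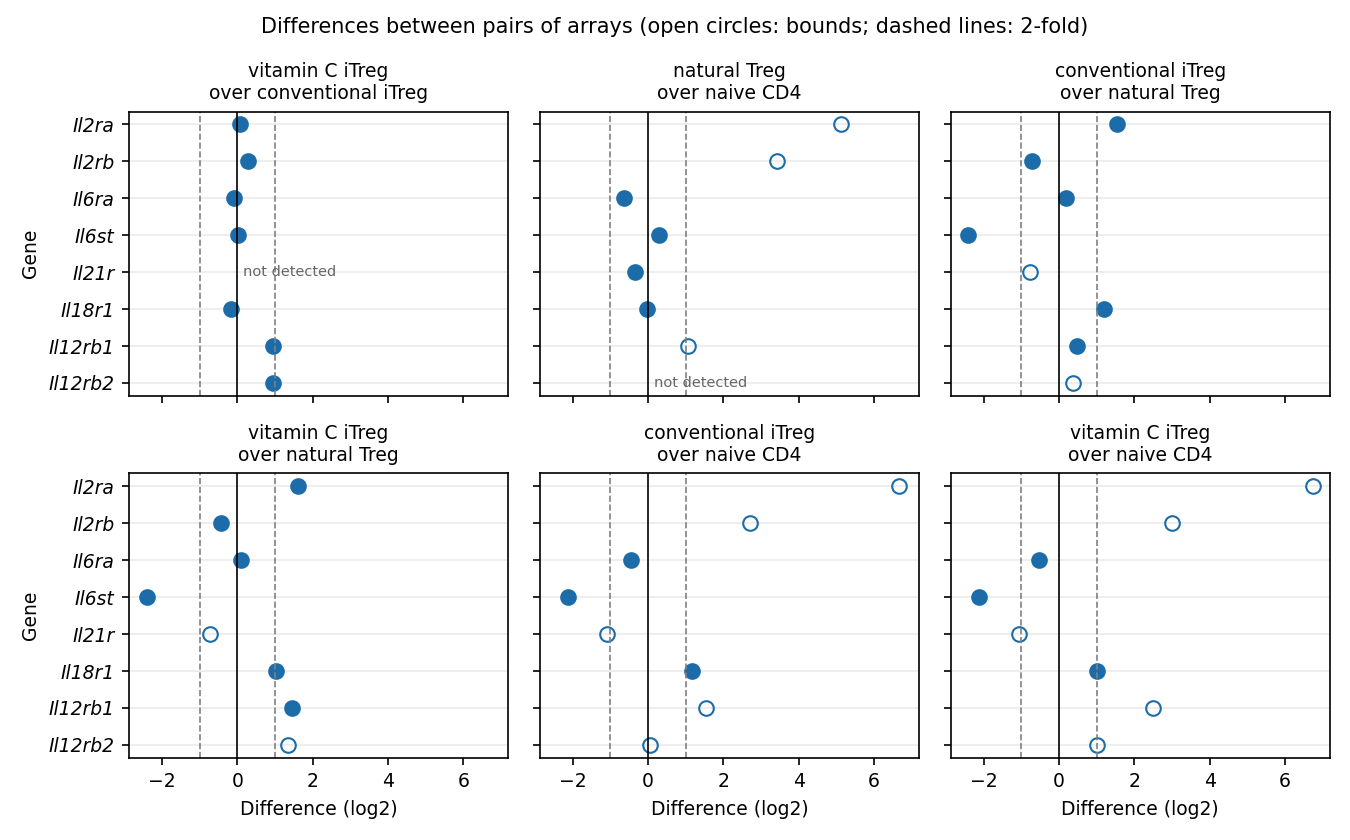
Log2 difference (x axis) of each of the 8 genes (rows) in each of the 6 pairs of arrays (panels), with filled circles where both arrays detected the gene and open circles for bounds. Dashed lines mark 2-fold. In the vitamin C panel all 7 compared genes lie inside the lines, while against naive CD4 Il2ra lies furthest out, at bounds of 6.67 and 6.73.

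Counted over the members, vitamin C iTreg against conventional iTreg had 0 of 7 compared genes at 2-fold in either direction, where 1.75% of 7756 genes reached it (73 higher and 63 lower). Of the 7, 5 were above 0 and 2 below, with a median of 0.06 against -0.01 over all genes. In natural Treg over naive CD4, 3 of 7 reached 2-fold, against 8.06% of 7582 genes (457 higher and 154 lower). All 3 were higher (Il2ra, Il2rb and Il12rb1) and all 3 were bounds, so the count was 0 where detection was required on both arrays. The members' median there was 0.28 and that of all genes -0.05.

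In conventional iTreg over natural Treg, 3 of 8 reached 2-fold, against 23.1% of 8031 genes (893 higher and 963 lower). Il2ra and Il18r1 were the 2 higher members and Il6st the lower one. Without the detection filter the count was 5. In vitamin C iTreg over natural Treg, 5 of 8 reached it, against 24.8% of 8034 genes (943 higher and 1048 lower), with Il12rb1 and Il12rb2 higher in addition. The members' medians were 0.28 and 0.57, those of all genes -0.06 in both. In conventional iTreg over naive CD4, 6 of 8 reached 2-fold, against 27.9% of 7963 genes (1051 higher and 1174 lower). The 4 higher members were Il2ra, Il2rb, Il18r1 and Il12rb1, and the 2 lower ones Il6st and Il21r, and with detection required on both arrays the count was 2. In vitamin C iTreg over naive CD4 7 of 8 reached it, the same members and Il12rb2, against 29.8% of 7945 genes (1098 higher and 1268 lower). That count was 4 without background correction or with an offset of 50, and 2 with detection required on both arrays. The medians were 0.61 and 1.00, against -0.08 and -0.09 over all genes. Both iTreg arrays were set against the same natural Treg and naive arrays, so these counts are not independent.

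**Figure D4:**
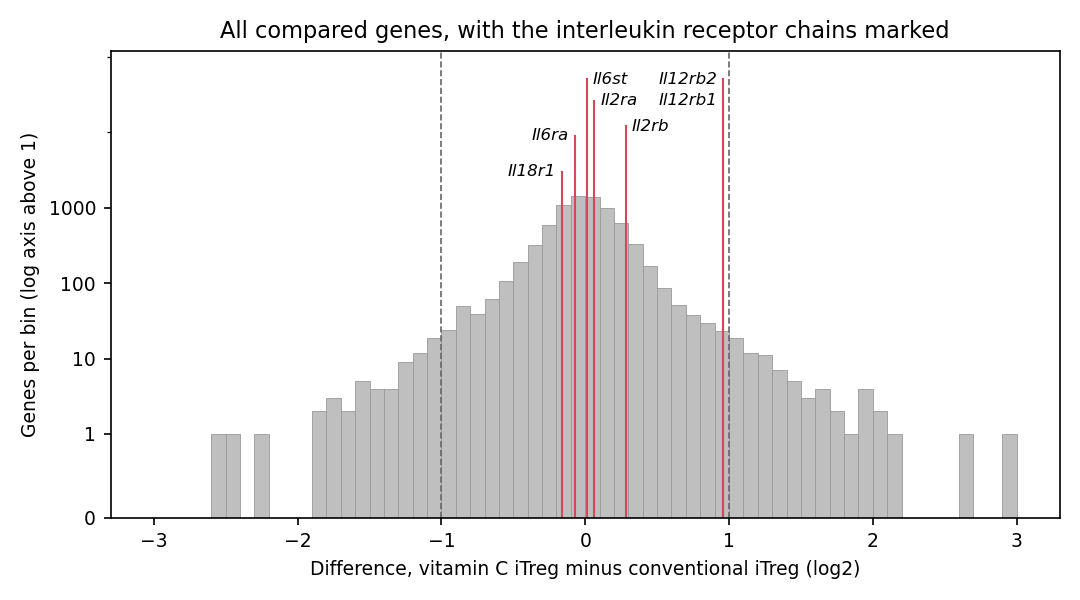
Number of the 7756 compared genes (y axis, logarithmic above 1) by their log2 difference of vitamin C iTreg from conventional iTreg (x axis, bins of 0.1), with the 7 compared receptor genes as red lines and 2-fold as dashed lines. Il12rb1 and Il12rb2 stand just inside the upper limit at 0.96, and the other members lie between -0.16 and 0.28.

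Other cytokine receptor chains were described from a list of 31 genes, of which 28 had a probe. Between vitamin C and conventional iTreg 17 were compared: 0 were at least 2-fold higher and 1 lower, against 0.94% and 0.81% of all genes. Of the 17, 12 were below 0, and the median was -0.18 against -0.01 over all genes. The one at least 2-fold lower was Il7r, the IL-7 receptor alpha chain (-1.07). Il18rap, Ifngr1 (-0.45) and Ifngr2 (-0.42), the last 2 being the chains of the interferon-gamma receptor, came next. A second Il7r probe differed by -0.97 and the remaining one was detected in naive CD4 alone. Il12rb1 and Il12rb2 thus lay on the opposite side of 0 from 12 of these 17 genes. Over all 7756 compared genes the sides were nearly even, with 3751 above 0 and 3966 below. Several of the 12 differences were small, such as those of Il20rb (-0.09) and Il3ra (-0.11).

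In natural Treg over naive CD4, 3 of 18 genes of that list were at least 2-fold higher and 1 lower, against 6.03% and 2.03% of all genes. The median was 0.32, against -0.05 over all genes. Il1r2, a decoy receptor for IL-1, was at least 13.1-fold higher and Il17rb at least 3.92-fold, Il10ra was higher by 1.58 log2, and Il7r was lower (-1.35). In conventional iTreg over natural Treg, 3 of 19 were higher and 7 lower, against 11.1% and 12.0% of all genes. The median was -0.62 against -0.06 over all genes, with Il27ra, the IL-27 receptor, at -2.45 and Il7r at -2.38. In vitamin C iTreg over natural Treg these counts were 3 and 8 of 19 (median -0.91). In conventional iTreg over naive CD4, 3 of 17 were higher and 4 lower, against 13.2% and 14.7% of all genes (median -0.17 against -0.08). Il7r was at -3.72, Il27ra at -2.58 and Csf2ra, the GM-CSF receptor alpha chain, at 2.49. In vitamin C iTreg over naive CD4 the counts were 3 and 5 of 17 (median -0.31), with Il7r at -4.79.

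Of 10 JAK kinases and STAT factors with a probe, 9 were compared between the iTreg arrays. There 0 were at least 2-fold higher and 1 lower, Stat4, against 0.94% and 0.81% of all genes. Stat5a, which carries the IL-2 signal, was at -0.46 and Stat2 at 0.42. In natural Treg over naive CD4 0 of 9 reached 2-fold, against 8.06% of all genes. Of the 9, 8 were above 0 (median 0.30, against -0.05 over all genes), led by Stat5a (0.78). Jak1, a kinase used by the IL-2, IL-6 and IL-21 receptors, was the one below 0 (-0.66). In conventional iTreg over natural Treg 0 of 9 were higher and 3 lower, Stat4 (-3.20), Jak1 (-1.46) and Stat2 (-1.30), and in vitamin C iTreg over natural Treg 0 were higher and 2 lower, Stat4 (-4.23) and Jak1 (-1.58). Over naive CD4 each iTreg array had 1 higher and 2 lower of 9. Stat5a was higher by 1.49 in conventional and 1.02 in vitamin C iTreg, Jak1 was at -2.12 and -2.25, and Stat4 at -3.15 and -4.18.

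Ligands of these receptors that had a probe were mostly not detected. Il2 and Il12b, among the 15 ligand genes listed, had no probe and were not measured. Of 13 ligand genes with a probe, 5 were compared between the iTreg arrays and 0 reached 2-fold there or in any other pair. Of all genes 1.75% to 29.8% reached it, depending on the pair. Osm, a ligand of gp130 receptors, was detected on all 4 arrays (11.77 to 12.14 log2) and Lif, another, was detected on the 3 Treg arrays (6.58 to 7.03). Il4, Il6, Il18 and Il21 were detected on none of the 4 arrays.

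The genes listed as IL-2 response genes were 0 of 9 at 2-fold between the iTreg arrays (median -0.05), against 1.75% of all genes. Whether signalling through Il2ra and Il2rb set their levels was not tested. Myc (-0.49), Ccnd2 (-0.46), Bcl2 (-0.38) and Lta (0.26) differed most. In natural Treg over naive CD4 3 of 9 were at least 2-fold higher and 0 lower, against 6.03% and 2.03% of all genes. The feedback inhibitor Socs2 was at least 64.1-fold higher, Cish higher by 3.40 log2 and Lta by 1.49. In conventional iTreg over natural Treg 3 of 9 were higher (Socs2 by 2.03, Myc by 2.03 and Lta by 1.20) and 1 lower (Socs3, -1.77), and in vitamin C iTreg over natural Treg also 3 and 1. Over naive CD4 each iTreg array had 4 higher and 1 lower of 9, with Cish at 4.26 in conventional and 4.20 in vitamin C iTreg.

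Likeness to a member was measured as the Euclidean distance between the 4 log2 values, each profile centred on its own mean, over 8099 other named genes detected on at least 1 array. With 4 arrays many genes have nearly the same profile, so the neighbours are a description only. Values under the detection limit entered as measured, so where an array did not detect a gene its distance rests partly on background signal. This touches the member or a neighbour in all rankings but that of Il6st, and for Il2ra the naive value of the member and of its 3 neighbours was not detected. Nearest to Il2ra were Socs2 (distance 0.48), Osbpl3 (0.86) and Bhlhe40 (1.18). Nearest to Il12rb1 were Daw1 (0.11), Grb7 (0.24) and Maf (0.33), and nearest to Il12rb2 Stmn1 (0.19), Krt6b (0.24) and Pdlim5 (0.24). Il6st was most like Cd96 (0.21), Btla (0.22) and Gimap5 (0.23). Il18r1 was nearest to Pacsin2 (0.04), Magi3 (0.05) and Pmepa1 (0.06), Il2rb to Npas4 (0.11), Sccpdh (0.40) and Plpp1 (0.42), and Il21r to Lgals9 (0.07), Zmym6 (0.09) and Cd52 (0.09). Among the members themselves, Il12rb1 was the one nearest to Il2rb (rank 91, distance 1.34) and to Il2ra (rank 148, distance 3.93).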

How the data were processed

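Total RNA (550 ng per array) was labelled with biotin per the labels' protocols, and the submitters' processing notes name GenomeStudio 2011.1. For 25697 probes per array the authors deposited a linear intensity with its detection p-value, per the file headers. They also deposited log2 values, which equalled the quantile-normalized log2 of the deposited intensity within 5e-07. The sources used here do not say how background was treated before deposit.

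The neqc function of limma (3.58.1, run in R 4.3.3) was applied to the intensities (normexp background from the detection p-values, offset 16, quantile normalization over the 4 arrays). Python 3.11.15, numpy 2.4.6, pandas 2.3.3 and matplotlib 3.10.9 were used afterwards. Quantile normalization hides a shift of most genes in 1 direction, and the offset pulls dim genes toward 0. Median intensities before it were 132 to 157. Symbols were updated through a RefSeq table of GRCm38.p6, where 23971 probes had a match and 8 symbols changed, and 1719 probes are unnamed. The probe of a gene with the highest mean over the arrays stood for it. The steps were tested on simulated arrays in which only bright probes were changed, each by more than 2-fold. That test does not bear on dim genes or on smaller differences.

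The named genes were all probes of the members, the 3 genes nearest to each member that spanned 1 log2 or more (no provisional gene models), and the 4 members of each list that differed most, with ligands and kinases of the members. The members, the 5 pathway lists and the 6 marker lists were chosen with earlier results of these data known. No protein sequences were used here. The number of arrays limits the precision.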

Additional observations from a re-analysis of the deposited data

How the results depend on the processing

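There were 8 alternatives: no background correction, a larger offset (50), median centring in place of quantiles, the authors' log2 values, a detection limit of 0.05, detection needed on both arrays, no detection filter, and the mean over a gene's probes. The authors' values equalled those without background correction, so these settings repeat each other and enter every count below separately. Of 351 single-gene differences under an alternative, 303 lay within 0.5 log2 of the main value, 48 did not, and 0 of those at 2-fold changed sign. All 48 were bounds or used a value under the detection limit. Il6st between the iTreg arrays was the 1 difference with both signs, from -0.0051 to 0.0124. Il12rb1 stayed between 0.77 and 0.96 and Il12rb2 between 0.57 and 0.96 for vitamin C over conventional iTreg, and Il2ra between 1.52 and 1.63 for conventional iTreg over natural Treg. Both arrays compared detected these genes, so a change of the detection rule alone could not move them. Nor could averaging probes move Il12rb2 or Il2ra, which have 1 probe. The 303 differences within the margin include such values that could not move. Of 96 counts of members or of all genes, 87 were within 1.5 times the main count. For vitamin C over conventional iTreg, all genes at 2-fold numbered 54 (34 higher and 20 lower) without background correction and 54 with the authors' values, in place of 136. Vitamin C iTreg over naive CD4 had 7 members at 2-fold, and 4 without background correction, 4 with an offset of 50, 4 with the authors' values and 2 with detection required on both arrays. With that requirement conventional iTreg over naive CD4 had 2 in place of 6 and natural Treg over naive CD4 had 0 in place of 3, since Il2ra, Il2rb and Il12rb1 were not detected in naive CD4, nor Il21r in iTreg, and these left the comparisons. Without the detection filter conventional iTreg over natural Treg had 5 in place of 3. List counts, an addition made after the data were seen, were within 1.5 times in 217 of 240 cases. The single gene at 2-fold between the iTreg arrays on the receptor list (Il7r) and on the JAK and STAT list (Stat4) was not counted in 3 and 4 alternatives. No paired analysis was possible because each group has 1 array.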
